A study of Mus musculus with 9 samples.

Results

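A set of 10 genes of the smooth muscle contractile programme was followed in cultured mouse myoblasts: Acta2, Tagln, Cnn1, Actg2, Myl9, Tpm1, Tpm2, Cald1, Mcam and Srf. They were taken by symbol and are 10 of the 47729 gene rows of the count files. The set had been selected on the read counts of these same 3 populations, scaled to the depth of each library, so its levels and differences are descriptions and carry no test. Of the 10, 9 had enough reads to enter the fit across genes, and Cnn1 did not.

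The contractile proteins of smooth muscle build an actin and myosin apparatus without sarcomeres, and many of their genes are switched on by serum response factor (SRF). SRF binds a DNA element called the CArG box. It acts with partner proteins of the myocardin family, among them the actin-sensing cofactors MRTF-A and MRTF-B, or with ternary complex factors (TCFs) that respond to growth factors. Cells outside smooth muscle, including cultured fibroblasts and myoblasts, also use several of these genes for stress fibres and adhesion.

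Messenger RNA had been sequenced from cultured skeletal muscle myoblasts, the dividing precursors of muscle fibres, from FVB/N mice, an inbred strain. There were 3 populations with 3 libraries each: a parental one (PAR) and 2 of reserve cells, which the labels name FRCs Cycle 1 (FRC1) and SRCs Cycle 3 (SRC3). All 3 shared the strain and tissue, and the labels gave no genetic change or drug. Reserve cells are the cells that stay undifferentiated when a myoblast culture is induced to fuse, and both reserve populations were passaged in proliferation medium between isolation and harvest. The labels used here do not state the donors' age and sex, or whether the 3 libraries of a group came from separate cultures. The spread between libraries may therefore be technical, and every p-value below measures only that spread.

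Gene counts came to between 13012996 and 14336279 per library, and 17071 to 17416 genes had reads. Levels are in CPM, read counts scaled to a common library depth, here after TMM normalization, and 3 counts in a library correspond to 0.209 to 0.231 CPM. The myoblast markers Myod1 (539 to 776 CPM as group means) and Pax7 (72.6 to 127 CPM) were present in every group, while Myf5 was at 0 in all PAR and FRC1 libraries. Of 10 markers of smooth muscle cells and pericytes, the 5 taken as defining, Myh11, Myocd, Lmod1, Rgs5 and Kcnj8, each stayed under 1 CPM in all 9 libraries, while Smtn, Notch3 and, in the reserve populations, Cspg4 were above it. Endothelial markers summed to under 1 CPM in every library, and the defining immune and Schwann genes Ptprc, Adgre1 and Sox10 were at or near 0. In these bulk samples, fewer cells of a type and less RNA per cell cannot be told apart.

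The promoters of 8 of the 10 genes were available from RefSeq (build GRCm38.p6) as windows from 250 bases before the transcription start to 50 after it, in 9 windows since Cald1 has 2. They were searched for the CArG box, which reads CC, then 6 bases that are each A or T, then GG. The pattern is its own reverse complement, so that 1 search covers both strands. An exact box lay in 2 of the 9 windows, those of Myl9 and Srf, against 535 (1.63%) of all 32851 windows of this length. Allowing 1 G or C among the 6 inner bases, which takes in the exact boxes too, the count was 3 of 9, with Acta2 added, against 3280 windows (9.98%). The stretches that hold these boxes are shown because they are the element that SRF reads, with the boxes in capitals, each 5′ to 3′ on the gene's own strand.
Srf, chr17:46556195-46556264, minus strand: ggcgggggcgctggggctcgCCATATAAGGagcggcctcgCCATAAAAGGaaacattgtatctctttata
Myl9, chr2:156775283-156775394, plus strand: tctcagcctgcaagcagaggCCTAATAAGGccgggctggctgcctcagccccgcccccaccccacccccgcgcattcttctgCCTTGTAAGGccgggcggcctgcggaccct
Acta2, chr19:34255438-34255467, minus strand: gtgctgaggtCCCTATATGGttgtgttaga
Acta2, chr19:34255388-34255417, minus strand: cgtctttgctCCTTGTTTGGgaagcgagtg
Both Srf boxes are exact and begin 82 and 62 bases before the start. In Myl9 the exact box begins 161 bases before the start and the other, with 1 G in its core, 99 bases before it. The Acta2 boxes begin 84 and 34 bases before the RefSeq start, and each has 1 inner G or C. GENCODE M21 sets the outer end of Acta2 at 34255590, so both boxes fall inside its annotated span. No box was found in the windows of Tpm1, Tpm2, Cald1, Mcam or Cnn1, which says only that these letters are not in those windows. A match is a description of sequence, and no binding was measured.

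**Figure D1:**
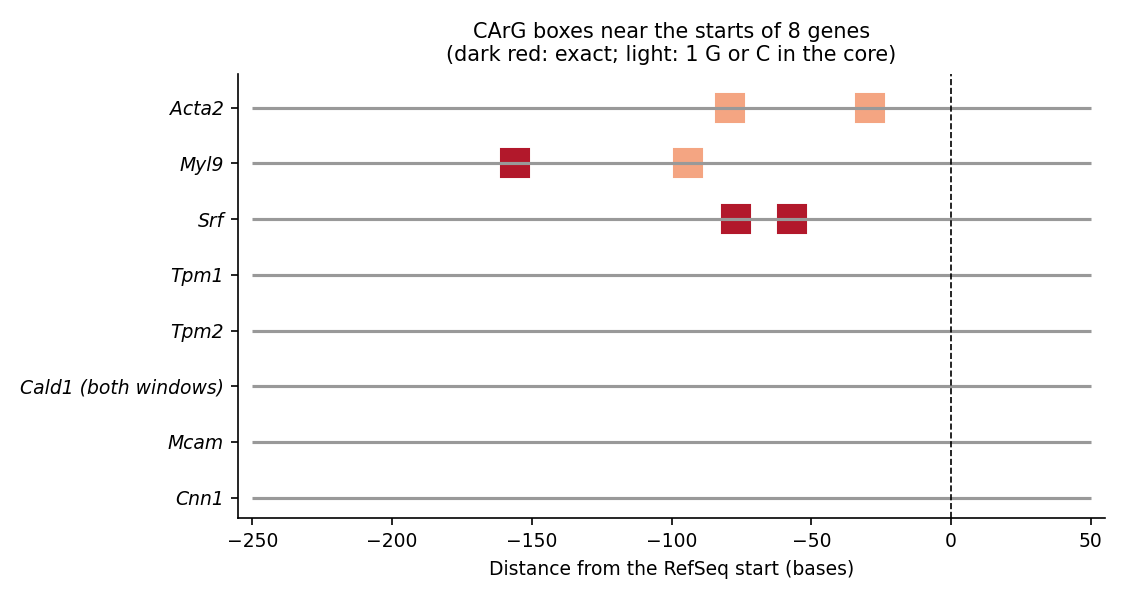
Positions of CArG boxes (coloured blocks, drawn to scale at 10 bases) relative to the RefSeq start (dashed line, distance in bases) for the 8 genes with a promoter window. Exact boxes are dark and boxes with 1 inner G or C are light; Srf, Myl9 and Acta2 each hold a pair and the other 5 genes none.

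The thin filament genes come first. Acta2 encodes smooth muscle alpha-actin (ENSMUSG00000035783, chromosome 19, 34241090 to 34255590, minus strand, GRCm38). Its level was 64.9, 73.5 and 62.9 CPM in the PAR libraries, 173, 233 and 192 in FRC1, against 7.69, 14.3 and 3.80 in SRC3. Every FRC1 library lay above every PAR library, and every SRC3 library lay far below both. The means were 67.1 ± 5.64 CPM (SD, n = 3) in PAR, 199 ± 30.3 in FRC1 and 8.58 ± 5.29 in SRC3. Against PAR, Acta2 was 2.97-fold higher in FRC1 (log2 fold change 1.57, SE 0.25) and 7.83-fold lower in SRC3 (-2.97, SE 0.35). Between the reserve populations the difference was 23.3-fold (-4.54, SE 0.33). In SRC3 the highest library had 3.76 times the lowest, against 1.17 times in PAR and 1.34 times in FRC1. The SRC3 value rested on 105, 185 and 50 reads, so the spread there is between libraries rather than counting error alone.

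Actg2, the enteric smooth muscle gamma-actin (chromosome 6, 83512905 to 83536265, minus strand), was barely detected. It had 14, 16 and 8 reads in the PAR libraries, 13, 31 and 26 in FRC1, against 5, 5 and 3 in SRC3. PAR and FRC1 overlapped, and SRC3 lay below both. The means were 0.924 ± 0.332, 1.67 ± 0.612 and 0.326 ± 0.086 CPM (SD, n = 3 each). Actg2 entered the fit only because of its FRC1 reads: without that population it would have missed the filter on low counts.

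Tagln encodes transgelin, or SM22-alpha, an actin-bundling protein and an early marker of smooth muscle (ENSMUSG00000032085, chromosome 9, 45929619 to 45936058, minus strand, opposite the gene Pcsk7). Its level was 110.4, 124 and 103 CPM in PAR, 169, 263 and 219 in FRC1, against 5.71, 11.1 and 2.96 in SRC3. As for Acta2, the 3 groups did not overlap, and FRC1 was highest and SRC3 lowest. The means were 112 ± 10.7, 217 ± 47.1 and 6.59 ± 4.14 CPM (SD, n = 3). Tagln was 1.94-fold higher in FRC1 than in PAR (log2 fold change 0.95, SE 0.25), 17.1-fold lower in SRC3 than in PAR (-4.09, SE 0.37) and 33.0-fold lower in SRC3 than in FRC1 (-5.05, SE 0.36). Without SRC3 replicate 2, the highest SRC3 library for both genes, the difference from PAR was -4.68 for Tagln and -3.53 for Acta2. Without replicate 3, the lowest, it was -3.74 and -2.62.

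Cnn1, the smooth muscle calponin (chromosome 9, 22099216 to 22109630, plus strand), had 2, 0 and 1 reads in the PAR libraries, 1, 0 and 0 in FRC1, and 0 in each SRC3 library. These totals of 3, 1 and 0 reads are at or under the floor of 3 counts, so no fold is given. Calponin transcripts came instead from its paralogues Cnn2 and Cnn3, and Cnn1 held at most 0.0149% of the calponin level per kilobase in any library.

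**Figure D2:**
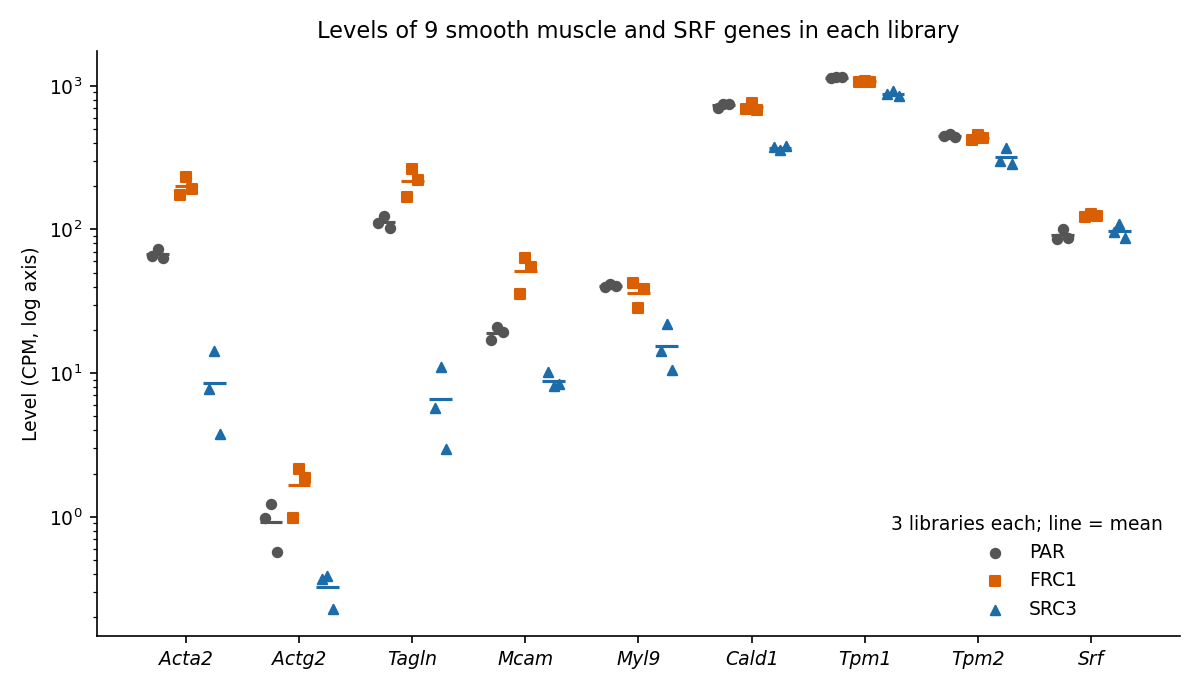
Level in CPM (log axis) of 9 of the genes in each of the 9 libraries, with a line at each group mean (n = 3); Cnn1, with 0 to 2 reads a library, is left out. Acta2, Tagln and Mcam are highest in FRC1 and lowest in SRC3, while Tpm1, Tpm2, Cald1 and Myl9 differ little between PAR and FRC1 and are lower in SRC3.

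Tpm1 and Tpm2 encode tropomyosins, which lie along the actin filament, and had the highest levels per kilobase of the 10 genes. In CPM, Tpm1 (chromosome 9, 67022590 to 67049406, minus strand) measured 1134, 1145 and 1144 CPM in PAR, 1069, 1080.4 and 1064 in FRC1, against 871, 922 and 845 in SRC3. The groups did not overlap, although the step from PAR to FRC1 was small (log2 fold change -0.09, SE 0.04) and that to SRC3 was larger (-0.38, SE 0.04). Tpm2 (chromosome 4, 43514711 to 43523765, minus strand) measured 447, 459 and 440.3 CPM in PAR, 419.7, 452 and 432 in FRC1, against 299, 366 and 286 in SRC3. PAR and FRC1 overlapped, and SRC3 lay below both, by 0.50 (SE 0.07) on the log2 scale against PAR.

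Caldesmon, the product of Cald1, binds actin and tropomyosin and restrains myosin (chromosome 6, 34598500 to 34775473, plus strand). Cald1 had 706, 745 and 749 CPM in PAR, 691, 759.8 and 683 in FRC1, against 373, 359.7 and 382 in SRC3. PAR and FRC1 could not be separated (log2 fold change -0.04, SE 0.05), while the SRC3 libraries were tightly grouped at close to 1.97-fold below PAR (-0.98, SE 0.05). Cald1 was 1 of the 2 genes of the 9 that were not highest in replicate 2 of SRC3. Its 3 antisense neighbours, Gm13861, Npn2 and Gm14547, could share its reads if counting ignored strand, and the same holds for Tagln, Mcam and Srf, which also have a gene on the opposite strand.

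Myl9 encodes the regulatory light chain of smooth muscle myosin, whose phosphorylation starts contraction (chromosome 2, 156775420 to 156781658, plus strand). It measured 39.7, 41.4 and 40.2 CPM in PAR, 42.2, 28.6 and 38.2 in FRC1, against 14.1, 22.0 and 10.5 in SRC3. FRC1 spread to both sides of PAR, and all SRC3 libraries were lower than all others. The mean in SRC3 was 15.5 ± 5.86 CPM (SD, n = 3), 2.61-fold under the 40.4 ± 0.886 CPM of PAR (log2 fold change -1.38, SE 0.25). The exact CArG box shown above lies before its start, as in Srf, whose levels had another order.

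Mcam encodes CD146, an adhesion molecule of the cell surface found on smooth muscle cells, pericytes and endothelium (chromosome 9, 44134469 to 44142727, plus strand). Its level was 16.9, 21.0 and 19.2 CPM in PAR, 35.3, 63.6 and 54.5 in FRC1, against 10.1, 8.09 and 8.43 in SRC3. The order was that of Acta2 and Tagln, with no overlap, although FRC1 replicate 1 stood well under the other FRC1 libraries. Mcam was 2.70-fold higher in FRC1 than in PAR (log2 fold change 1.43, SE 0.21), 2.13-fold lower in SRC3 than in PAR (-1.09, SE 0.26) and 5.76-fold lower in SRC3 than in FRC1 (-2.53, SE 0.24).

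Srf itself (chromosome 17, 46548329 to 46556175, minus strand) measured 85.5, 101 and 86.8 CPM in PAR, 123, 128 and 124 in FRC1, against 96.2, 109 and 86.7 in SRC3. FRC1 lay above both other groups, and PAR and SRC3 overlapped. Srf was 1.37-fold higher in FRC1 than in PAR (log2 fold change 0.46, SE 0.08), while SRC3 differed from PAR by 0.10 (SE 0.08). It was the only 1 of the 9 fitted genes whose SRC3 mean was not below its PAR mean, at 97.4 ± 11.3 against 91.1 ± 8.67 CPM (SD, n = 3).

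**Figure D3:**
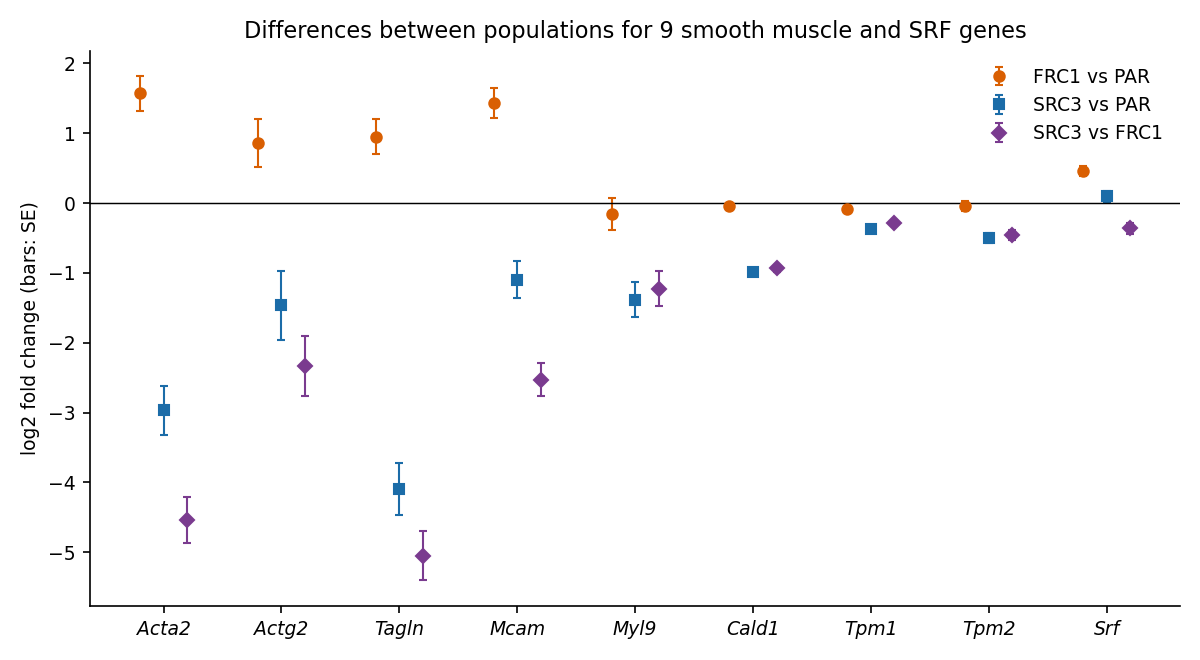
Log2 fold changes (points) with standard errors (bars) of the 9 fitted genes in the 3 comparisons, from the fit to all 9 libraries. All SRC3 against FRC1 values are below 0, from -0.28 for Tpm1 to -5.05 for Tagln, and only Srf is above 0 in SRC3 against PAR.

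Counted over the 9 fitted genes, 4 passed an adjusted p of 0.05 as higher in FRC1 than in PAR (Acta2, Tagln, Mcam and Srf) and 0 as lower, where 28.3% of the 12540 tested genes passed, 13.6% as higher and 14.7% as lower. In SRC3 against PAR, 8 passed as lower and 0 as higher, against 37.9% of all genes, 20.2% as lower and 17.8% as higher. In SRC3 against FRC1, 9 passed as lower and 0 as higher, against 33.5%, 18% as lower and 15.5% as higher. Actg2, which entered the fit only through its FRC1 reads, is among the 8 and the 9. Since the genes were selected on these contrasts, nothing is read from these counts. With no adjustment, 5 were higher and 1 lower in FRC1 against PAR, 8 lower in SRC3 against PAR and 9 lower in SRC3 against FRC1, with 0 higher in both of the latter. DESeq2 called 3 higher in the first comparison and limma voom 4, with 0 lower, and both called 0 higher and 8 and 9 lower in the other comparisons. Groups that did not overlap were found for 5, 8 and 9 of the genes, against 44.2%, 49.2% and 42.8% of all genes. The median log2 fold change of the 9 genes was 0.46, -1.09 and -1.23 in the 3 comparisons, against 0.0034, 0.0057 and -3e-04 over all tested genes.

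Some of these calls changed when 1 library was left out. For Tagln in FRC1 against PAR the call was lost when PAR replicate 1, 2 or 3, FRC1 replicate 2 or 3, or SRC3 replicate 1 was left out, with the log2 fold change at 0.94, 1.02, 0.89, 0.79, 0.94 and 0.95 in turn. For Mcam in SRC3 against PAR it was lost without SRC3 replicate 2 (-1.02) or 3 (-1.05). For Actg2 in SRC3 against PAR it was lost without the first (-1.41) or the second (-1.22) PAR library, and without SRC3 replicate 1 (-1.55) or 3 (-1.27). Actg2 gained a call in FRC1 against PAR without FRC1 replicate 1 (1.13). The calls of Acta2, Srf, Myl9, Cald1, Tpm1 and Tpm2 were the same in each of the 9 fits that left out 1 library.

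The libraries also differed within each population in a shared way. Replicate 2 had the highest level for 8 of the 9 genes in PAR, 8 in FRC1 and 7 in SRC3, and SRC3 replicate 3 had the lowest for 7 of 9. Genes of skeletal muscle differentiation, such as the sarcomeric actins, myosins and troponins, were also highest in replicate 2 for 11 of 16 tested markers in FRC1 and 14 of 16 in SRC3, but for 2 of 16 in PAR. Their summed level in SRC3 was 200.3, 238.5 and 190.9 CPM in replicates 1 to 3. The part of this state in the levels of the smooth muscle genes was not tested.

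The order of the genes by level was taken only per kilobase of merged exon. Merged exon joins the exons of all annotated transcripts of a gene. The value is therefore too low for a gene whose transcripts each use only part of them. In PAR the order from high to low was Tpm1 (176 CPM per kb), Tpm2 (154), Cald1 (60.9), Tagln (56.5), Myl9 (34.8), Srf (31.5), Acta2 (30.6), Mcam (5.68), Actg2 (0.593) and Cnn1. Cald1 and Tagln overlapped over the 3 libraries, as did Myl9 with Srf and Srf with Acta2, and the other neighbours did not. In FRC1 Tagln (109) and Acta2 (90.7) moved above Cald1 (59.1) and overlapped only each other. In SRC3 both dropped in this order to 3.32 and 3.91 CPM per kb, under Srf (33.7), Cald1 (30.9) and Myl9 (13.4), and overlapped each other. Mcam (2.65), next in the order, overlapped Tagln there. Tpm1 and Tpm2 led in all 3 groups.

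The other actin genes put the Acta2 values in proportion. Of the level per kilobase of the 4 muscle actins, Acta2 held 93.2% ± 0.888 (SD, n = 3) in PAR, 71.5% ± 1.80 in FRC1 and 40.2% ± 4.67 in SRC3. The skeletal actin Acta1 held 2.63% ± 0.505, 17.8% ± 1.30 and 33.6% ± 5.30, and the cardiac actin Actc1 2.35% ± 0.898, 9.92% ± 0.778 and 23.7% ± 5.05. In CPM, Acta1 was 1.54, 1.45 and 0.994 in PAR, 33.6, 38.0 and 31.6 in FRC1, against 3.44, 9.02 and 2.66 in SRC3. It rose in FRC1 against PAR (4.69 on the log2 scale, SE 0.41, edgeR adjusted p = 0.000127) and in SRC3 against PAR (1.91, SE 0.56, edgeR adjusted p = 0.0296), and was lower in SRC3 than in FRC1 (-2.78, SE 0.33, edgeR adjusted p = 0.00036). The SRC3 against PAR call was lost without PAR replicate 1 (2.04), 2 (1.98) or 3 (1.74) or without FRC1 replicate 1 (1.91), with edgeR adjusted p from 0.0505 to 0.0967. Actc1 rose in both as well, by 4.03 (SE 0.20, edgeR adjusted p = 1.98e-10) and 1.44 (SE 0.28, edgeR adjusted p = 0.000349). Thus in SRC3 Acta2 was below PAR while Acta1 and Actc1 were above it. Muscle actins were a small part of all actin: of the 6 actin genes per kilobase, Acta2 held 1.32%, 3.68% and 0.196% in the 3 groups, and the cytoplasmic actin Actb 88.4%, 84.4% and 88.3%. Actin genes are alike in sequence, and reads that could not be placed in 1 of them were not counted, so these shares are uncertain.

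**Figure D4:**
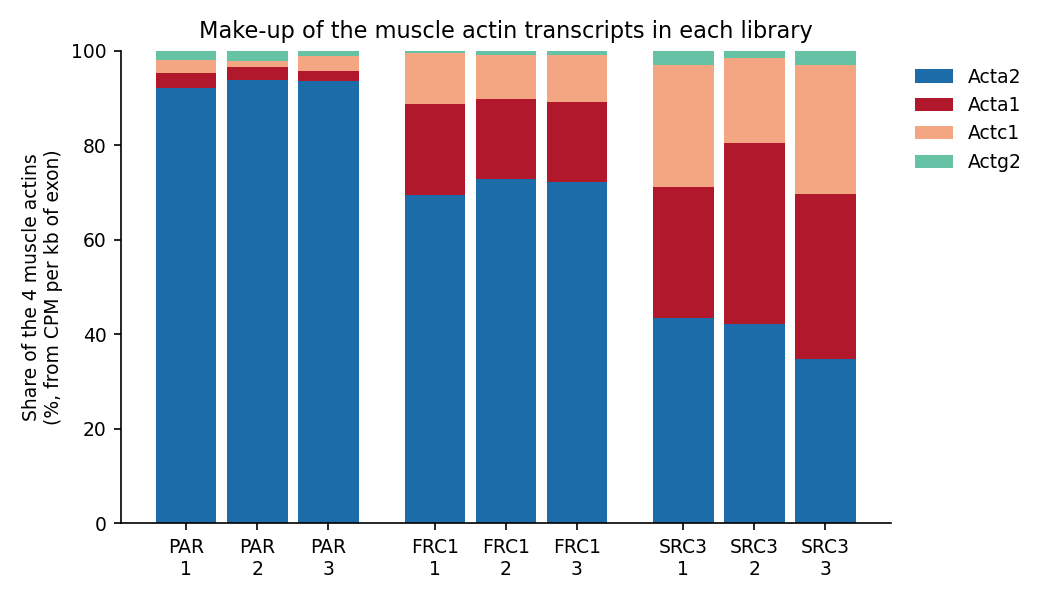
Share (%) of the 4 muscle actin genes in each library, computed from CPM per kilobase of merged exon; bars start at 0 and add to 100. Acta2 makes up 92.2 to 93.8% in PAR, 69.4 to 72.8% in FRC1 and 34.8 to 43.5% in SRC3, where Acta1 and Actc1 take most of the rest.

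Among the paralogues of the 10 genes, which serve the same functions in non-muscle or striated muscle cells, 12 of 13 were tested. In FRC1 against PAR 3 rose and 0 fell, in SRC3 against PAR 2 rose and 7 fell, and in SRC3 against FRC1 0 rose and 10 fell. Over all tested genes 13.6% rose and 14.7% fell in the first comparison, 17.8% and 20.2% in the second and 15.5% and 18% in the third. The 3 of 12 called in FRC1 against PAR were thus near the share of all genes called there in either direction, 28.3%, but all 3 rose. Leaving out PAR replicate 1, 2 or 3 or FRC1 replicate 1 left 1 riser in SRC3 against PAR, since Acta1 lost its call. Tagln2, the widely expressed transgelin, rose in FRC1 (0.32 on the log2 scale, SE 0.05, edgeR adjusted p = 0.000185) and fell in SRC3 (-0.31, SE 0.05, edgeR adjusted p = 0.000126) against PAR. Its means were 905 ± 24.2, 1127 ± 54.2 and 732 ± 56.3 CPM (SD, n = 3). Per kilobase, Tagln held 11.5%, 16.7% and 0.909% of the transgelins, and Tagln2 nearly all the rest. Cnn3 fell by 0.58 (SE 0.05, edgeR adjusted p = 2.49e-08) and Cnn2 by 0.41 (SE 0.09, edgeR adjusted p = 0.00449) in SRC3 against PAR on the log2 scale. Of the tropomyosins per kilobase, Tpm1 held 20.1%, 19.0% and 19.8%, Tpm2 17.6%, 17.2% and 15.9%, and Tpm4, the tropomyosin of non-muscle cells, 55.6%, 57.0% and 55.6%. These shares depend on the merged exon lengths, 6485 bases for Tpm1 and 2203 for Tpm4. In CPM, Tpm1 was at 1141, 1071 and 879 and Tpm4 at 1071, 1092 and 838 in PAR, FRC1 and SRC3. Tpm3 held 6.70% ± 0.109, 6.82% ± 0.191 and 8.76% ± 0.449 (SD, n = 3), with SRC3 above both other groups. Tpm4 fell in SRC3 against PAR too (-0.35, SE 0.05, edgeR adjusted p = 1.71e-05), while the level of Tpm3 differed by 0.03 (SE 0.04).

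Of 24 other contractile and attachment genes of smooth muscle, 20 were tested. In FRC1 against PAR 7 rose and 3 fell, in SRC3 against PAR 0 rose and 8 fell, and in SRC3 against FRC1 1 rose and 13 fell. The median log2 fold change was 0.08, -0.18 and -0.37. In either direction 10, 8 and 14 of the 20 were called, against 28.3%, 37.9% and 33.5% of all tested genes. By direction, 13.6% of all tested genes rose and 14.7% fell in the first comparison. The shares were 17.8% and 20.2% in the second and 15.5% and 18% in the third. The 8 of 20 in SRC3 against PAR were near the share called in either direction, but all 8 fell. Csrp2, Csrp1 and Pdlim7, LIM-domain proteins of actin filaments, led the rises in FRC1 among genes with a mean of 5 CPM or more (0.83, SE 0.19, edgeR adjusted p = 0.00696; 0.64, SE 0.11, edgeR adjusted p = 0.00175; and 0.58, SE 0.11, edgeR adjusted p = 0.00465). Smtn, a smooth muscle cytoskeletal protein, rose by 0.45 (SE 0.06, edgeR adjusted p = 3.18e-05). In SRC3 against PAR the LIM protein gene Fhl1 fell most, from 145 ± 6.69 to 5.32 ± 2.87 CPM (SD, n = 3; log2 fold change -4.77, SE 0.25, edgeR adjusted p = 3.7e-06). Jph2, which joins the surface and calcium store membranes, and Synpo2, an actin-binding protein of the Z disc and of smooth muscle, fell by 1.08 (SE 0.09, edgeR adjusted p = 4.79e-06) and 1.07 (SE 0.08, edgeR adjusted p = 1.08e-09). Both Jph2 and Synpo2 are also used in striated muscle, and Myh11, Kcnmb1, Lmod1 and Ppp1r14a, genes closer to differentiated smooth muscle, were under 1 CPM in every group. The counts depended on single libraries: without PAR replicate 3 the fallers in FRC1 were 1, without PAR replicate 2 the fallers in SRC3 against PAR were 5, and without FRC1 replicate 1 or 2 the risers in SRC3 against PAR were 2. The only riser in SRC3 against FRC1 was Mylk, myosin light chain kinase, named after its value was seen (log2 fold change 0.81, SE 0.29, edgeR adjusted p = 0.0349). Its means were 2.26 CPM in PAR, 0.912 in FRC1 and 1.61 in SRC3. Against PAR, Mylk fell in FRC1 (-1.30, SE 0.27, edgeR adjusted p = 0.00113) and was not called in SRC3 (-0.49, SE 0.24). The call in SRC3 against FRC1 was lost without FRC1 replicate 1 or 2 or SRC3 replicate 1 or 3, which left 0.

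The targets of SRF were split by the partner known to drive them. Of 20 genes of the actin-regulated MRTF branch, all tested, 8 rose and 1 fell in FRC1 against PAR, 3 rose and 9 fell in SRC3 against PAR, and 1 rose and 15 fell in SRC3 against FRC1. Without PAR replicate 3 the risers in FRC1 were 5. The shares called over all tested genes were 28.3%, 37.9% and 33.5%. The adhesion gene Vcl was the faller in FRC1, and the count was 0 without PAR replicate 3 or FRC1 replicate 3, 2 without FRC1 replicate 1 or SRC3 replicate 2, and 3 without SRC3 replicate 3. Tes, named after its value was seen, was the riser in SRC3 against FRC1 (0.14, SE 0.05, edgeR adjusted p = 0.0358), and 0 were left without FRC1 replicate 1 or 3 or SRC3 replicate 1. Cyr61, a secreted matrix protein, and Mical2, an enzyme that oxidises actin, rose in FRC1 by 0.79 (SE 0.11, edgeR adjusted p = 0.000585) and 0.70 (SE 0.10, edgeR adjusted p = 0.00043). Cyr61 and Tes also rose in SRC3 against PAR, by 0.51 (SE 0.11, edgeR adjusted p = 0.00498) and 0.60 (SE 0.05, edgeR adjusted p = 1.48e-08). Mical2 differed there by 0.07 (SE 0.10). The adhesion proteins Zyx and Lima1 fell in SRC3 against PAR by 1.18 (SE 0.07, edgeR adjusted p = 5.94e-10) and 0.76 (SE 0.05, edgeR adjusted p = 9.1e-10), Zyx from 1304 ± 61.2 to 576 ± 58.1 CPM (SD, n = 3). Of these 20 genes, Vcl, Flna, Fhl1, Fhl2, Pdlim7 and Tgfb1i1, are also in the list of contractile and attachment genes, and Actb and Actg1 are also among the paralogues.

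Of 12 growth-factor-driven TCF targets, mostly immediate early genes, 11 were tested: 6 rose and 0 fell in FRC1 against PAR, 5 rose and 1 fell in SRC3 against PAR, and 1 rose and 2 fell in SRC3 against FRC1. Their medians were 0.43, 0.46 and -0.05. Among all tested genes, 28.3%, 37.9% and 33.5% were called. Fosb rose from 1.29 ± 0.261 CPM in PAR to 5.82 ± 0.838 in SRC3 (SD, n = 3, log2 fold change 2.15, SE 0.23, edgeR adjusted p = 3.46e-07). In FRC1 it rose too, to 4.14 ± 0.990 CPM (1.67, SE 0.24, edgeR adjusted p = 4.34e-05). Nr4a1 and Ier3 rose in FRC1 by 1.07 (SE 0.14, edgeR adjusted p = 1.22e-05) and 0.58 (SE 0.11, edgeR adjusted p = 0.000624), and in SRC3 by 0.57 (SE 0.15, edgeR adjusted p = 0.00468) and 0.70 (SE 0.11, edgeR adjusted p = 4.61e-05). Egr1 was the faller in SRC3 against PAR (-0.42, SE 0.11, edgeR adjusted p = 0.0045), a call lost without PAR replicate 3 (-0.29), which left 0. The riser in SRC3 against FRC1 was Egr3 (1.39, SE 0.21, edgeR adjusted p = 3.08e-05), joined by others without FRC1 replicate 2 (3 in all) or SRC3 replicate 2 (2 in all). An exact CArG box lay in 4 of 12 promoter windows of this list and in 7 of 18 of the MRTF list, against the 1.63% of all windows given above.

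Of 12 partners and modulators of SRF 10 were tested, and Myocd, the smooth muscle and heart coactivator, and Gata6 stayed under 1 CPM in every library. In FRC1 against PAR 1 rose and 5 fell, in SRC3 against PAR 1 rose and 4 fell, and in SRC3 against FRC1 1 rose and 1 fell. A second gene rose in FRC1 without FRC1 replicate 3, and in SRC3 against FRC1 without FRC1 replicate 1 or SRC3 replicate 2. The shares over all tested genes, again, were 28.3%, 37.9% and 33.5%. Mkl1, which encodes MRTF-A, was at 77.7 ± 2.00, 76.3 ± 1.62 and 78.6 ± 7.22 CPM (SD, n = 3) and overlapped in all comparisons. Mkl2, which encodes MRTF-B, fell in FRC1 (-0.31, SE 0.07, edgeR adjusted p = 0.00242) and SRC3 (-0.44, SE 0.07, edgeR adjusted p = 5.15e-05). Klf4, known as a repressor of smooth muscle genes, rose in SRC3 against PAR (0.99, SE 0.11, edgeR adjusted p = 8.36e-07) and against FRC1 (0.72, SE 0.11, edgeR adjusted p = 3.47e-05). Its level averaged 12.7 ± 1.13 CPM in PAR, 15.2 ± 2.51 in FRC1 and 25.1 ± 2.18 in SRC3 (SD, n = 3), with PAR and FRC1 overlapping. The homeobox gene Prrx1 and Smad3, a transducer of TGF-beta, fell in both reserve populations, by 0.57 (SE 0.11, edgeR adjusted p = 0.00497) and 0.42 (SE 0.10, edgeR adjusted p = 0.00358) in FRC1 and by 0.55 (SE 0.11, edgeR adjusted p = 0.004) and 0.49 (SE 0.10, edgeR adjusted p = 0.000745) in SRC3. Elk3, a TCF, fell in SRC3 against FRC1 (-0.18, SE 0.05, edgeR adjusted p = 0.0153), a call lost without FRC1 replicate 2 (-0.15) or 3 (-0.17) or SRC3 replicate 1 (-0.17) or 3 (-0.13), which left 0 fallers.

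**Figure D5:**
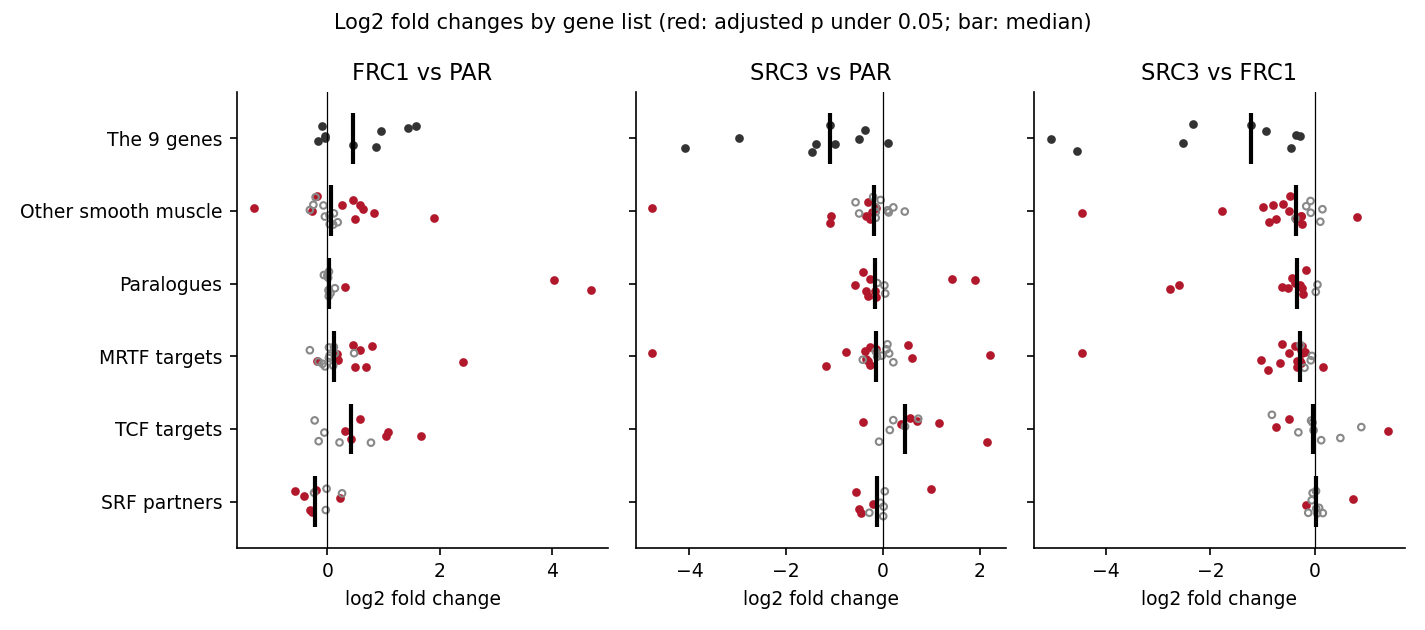
Log2 fold change (horizontal axis) of each tested gene in 6 lists (rows) and 3 comparisons (panels); vertical bars are medians, red points passed an adjusted p of 0.05 and open points did not, and the 9 genes themselves are drawn in dark grey with no test. The medians of the 9 genes are 0.46, -1.09 and -1.23, and those of the other lists lie between -0.37 and 0.46.

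Markers of other cell states moved alongside. The smooth muscle and pericyte markers had a summed level of 78.0 to 89.7 CPM in PAR, 109.8 to 118 in FRC1 and 114 to 129 in SRC3. Only 3 of the 10 had enough reads to test, and the sum came mostly from Smtn, Notch3 and Cspg4. Cspg4, the NG2 proteoglycan of pericytes and other progenitors, rose from 0.695 ± 0.325 CPM in PAR to 7.81 ± 2.91 in FRC1 and 52.3 ± 9.00 in SRC3 (SD, n = 3; log2 fold changes 3.47 and 6.20, edgeR adjusted p = 0.000877 and 1.35e-06), while Acta2, Tagln and Mcam were lowest in SRC3. Of 16 tested markers of skeletal muscle differentiation, 15 rose and 0 fell in FRC1 against PAR, 10 rose and 0 fell in SRC3 against PAR, and 0 rose and 14 fell in SRC3 against FRC1. Their sum was 103 to 116 CPM in PAR, 324 to 433 in FRC1 and 191 to 239 in SRC3, with Ckm under 1 CPM in every group. Tnnt2 was the largest part of it, with means of 62.2 ± 0.667, 168 ± 35.3 and 142 ± 4.90 CPM (SD, n = 3). Ttn was at 33.3 ± 5.43, 33.1 ± 3.79 and 34.2 ± 3.60 CPM. Myoblast markers summed to 2789 to 2873, 2681 to 2737 and 1856 to 2055 CPM, and 5 of 6 tested fell in SRC3 against PAR. For these marker counts too, the shares of all tested genes called were 28.3%, 37.9% and 33.5% in the 3 comparisons. Fibroblast markers summed to 557 to 587, 285 to 399 and 275 to 301 CPM, nearly all of it Col3a1, with Lum at 0 and Dcn under 1 CPM. Not every fibroblast marker was this low, those taken as defining included, so Lum and Dcn do not stand for the list. Ly6a, for instance, was at 2.86 ± 0.673, 1.61 ± 0.085 and 1.57 ± 0.622 CPM (SD, n = 3). The part of these markers in the levels of the smooth muscle genes was not tested.

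The genes with the pattern most like Acta2 and Tagln were sought among 9565 genes by the root mean square difference of centred log2 CPM over the 9 libraries, a measure of likeness with no test. Tagln and Acta2 differed from each other by 0.46 on this scale. Closest to Acta2 were Qrfp (0.39), Ctla2a (0.52) and Kif16b (0.59), and closest to Tagln were Pcbp3 (0.52), Fhl1 (0.56) and Htatip2 (0.58). Kif16b, a kinesin of endosome transport and the most abundant of these, had 286 ± 7.96 CPM in PAR, 539 ± 39.7 in FRC1 and 39.5 ± 2.08 in SRC3 (SD, n = 3). Qrfp, a neuropeptide precursor, had 5.47 ± 0.427, 13.6 ± 1.65 and 0.608 ± 0.287 CPM. Fhl1 also dropped in SRC3, but it was lower in FRC1 than in PAR, by 0.31 (SE 0.17), where Tagln was higher.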

How the data were processed

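Per the labels, stranded TruSeq libraries of mRNA were read as single 50-cycle reads. Per the submitters' processing notes, the build was GRCm38 and the tools included HTSeq 0.9.1, HISAT2 2.1.0 and DESeq2. For the settings, strand included, nothing is stated in the labels used here. In the deposited files each gene has a raw count of reads, which the authors left without scaling. Summary lines that name no gene stayed out of library sizes, and 5.92 to 7.92% of uniquely aligned reads lay in no gene. Reads with several alignments were not counted to genes. The summary line for them held 15795855 to 16889632 in PAR, 16473546 to 18523924 in FRC1 and 18602150 to 19695230 in SRC3. In every library this was above the gene counts.

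Genes were kept with filterByExpr of edgeR 4.0.16 in R 4.3.3 (a count of 10, total 15), which left 12540. All 9 libraries were fitted with the group as the only term, TMM factors of 0.994 to 1.01 and a robust dispersion, leaving 6 residual degrees of freedom. Pairs of groups were compared with edgeR's two-sided quasi-likelihood test and Benjamini-Hochberg adjustment over all tested genes at 0.05. No pair of replicates agreed within counting noise (chi-square per degree of freedom 1.87 to 7.97). Locations and exon lengths came from GENCODE M21. The pipeline was tested on simulated data. Alternatives were other scalings and filters, DESeq2 1.42.0, limma 3.58.1 with voom, 6-library fits, a replicate block and leaving out each library.

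The 10 genes, the lists and the rules were chosen with earlier results of these data known. Besides the 10 genes, the text names, for each list and comparison, up to 3 genes with the largest change past the threshold and a mean of 5 CPM or more on the higher side, SRF partners, paralogues and defining markers by value, and the 3 genes most like Acta2 and Tagln. The lists overlap in part. A pair of symbols, Tgfb1i1 and Itgam, had 2 rows each, and the more abundant row was used. The results of 1 further list and 1 marker are not reported here.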

Additional observations from a re-analysis of the deposited data

Results flagged for a closer look

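Acta2, Tagln and Mcam lay in opposite directions from PAR in the 2 reserve populations, above PAR in every FRC1 library and below it in every SRC3 library. Their log2 difference between SRC3 and FRC1 was -4.54 for Acta2, -5.05 for Tagln and -2.53 for Mcam. These genes were chosen with this contrast known, so the difference is given with no test. Of the other genes named from the lists by size of change, 3 showed the same reversal with a call in every comparison. Genes outside the lists were not searched for it. The means of Kif16b and Qrfp, given above, had the same order. Csrp1 differed between SRC3 and FRC1 by -0.99 (edgeR adjusted p = 6.39e-05), Tagln2 by -0.62 (edgeR adjusted p = 1.75e-08) and Egr1 by -0.75 (edgeR adjusted p = 1.55e-05), and both reserve populations were set against the same PAR libraries. Some of the calls against PAR behind these reversals were lost when 1 library was left out. For Csrp1 in SRC3 the call was lost without PAR replicate 1 (-0.37), 2 (-0.30) or 3 (-0.37) or SRC3 replicate 1 (-0.37). For Egr1 it was lost in FRC1 without PAR replicate 1 (0.25) or 2 (0.28) or FRC1 replicate 3 (0.28), and in SRC3 without PAR replicate 3 (-0.29).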

How the results depend on the processing

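Direction under the alternatives was checked for the 10 genes and for the genes named from the lists by size of change. Among these, no fold change that passed the threshold in the main fit changed direction, and those that did not pass were not checked. Other called genes, such as Vcl, Tes, Tpm4, Mylk and Egr3, were not checked either. Genes called in FRC1 against PAR ranged from 2327 (without FRC1 replicate 3) to 3987 when 1 library was left out, against 3550 with all. A fit of only the 6 libraries compared called 1 of the 10 genes, Tpm1, lower in FRC1 than in PAR, against 0. Tagln in that comparison was not called with no filter or by DESeq2 (log2 fold change 0.95 in both). Apart from these and the changes on leaving out 1 library given in the text, the calls of the 10 genes were the same throughout, except for Actg2. It was not tested under the stricter filter, nor in the 6-library fit of SRC3 against PAR, where it missed the filter on low counts. Of 2242 alternative values for the genes named from the lists by size of change, 46 lost and 61 gained a call. Whether replicate numbers pair the libraries could not be decided. Correlations of same-numbered deviations ran from -0.106 to 0.184 over 9 pairs, 2 of them over 0.1. Those of differently numbered libraries ran from -0.149 to 0.167, so the ranges overlapped. Same-numbered values that involve PAR were all above 0 (0.013 to 0.184), while those between FRC1 and SRC3 ran from -0.106 to 0.046. A replicate block called 3560, 4798 and 4221 genes in the 3 comparisons, against 3550, 4758 and 4199, and changed none of the counts for the 10 genes. With 3 libraries a group, genes at the level of Actg2 (3 to 31 reads) and Cnn1 (0 to 2) are limited by depth.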
